A study of Mus musculus with 8 samples.

Results

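The interaction of genotype and medium asks whether losing Dax1 changed a gene by a different amount in LIF/serum than in 2i/LIF. For each gene, the log2 change of Dax1KO ESCs against control ESCs in 2i/LIF was subtracted from the same change in LIF/serum, so a positive difference means that the Dax1KO effect was higher in LIF/serum. All 8 libraries entered the comparison, and the genes described are those expressed above the filter on low counts, 20749 of the 52550 genes listed. Of these, 596 passed the test of the difference with edgeR's quasi-likelihood test at an adjusted P of at most 0.05. They were sorted into serum-only genes (called for Dax1KO against control in LIF/serum and not in 2i/LIF), 2i-only genes (the reverse) and opposite-sign genes (called in both media with opposite directions).

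The control ESCs in 2i/LIF grew in N2B27 medium with 1 μM PD0325901, a MEK inhibitor, 3 μM CHIR99021, a GSK3 inhibitor, and 10 ng/ml LIF. The control ESCs in LIF/serum grew in medium with 15% FBS and the same 10 ng/ml of LIF. Dax1KO ESCs were grown in both media, and all groups were labelled passage 3 and grown on gelatin. By the study's methods, Dax1KO cells are 1 clone, made with CRISPR/Cas9 in 2i/LIF and then moved to LIF/serum, so what is particular to that clone cannot be told apart from the loss of Dax1. Each of the 4 groups had 2 libraries, and no label says that these came from separate cultures, so P values measure the spread between libraries, which may be technical.

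Dax1, encoded by Nr0b1, is an orphan nuclear receptor that lacks the usual DNA-binding domain and acts mostly as a corepressor of other nuclear receptors. Mouse ESCs in LIF/serum are a mixed population in which ERK signalling is active and cells move in and out of states primed for differentiation. In 2i/LIF, blockade of MEK and GSK3 holds cells in the ground state, in which MEK/ERK target genes are low and Wnt/beta-catenin signalling is on.

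The libraries held 35911384 to 37286251 counts, of which 4.27% to 5.18% belonged to the 10 most abundant genes. Nr0b1 itself had 5402 and 5001 normalized counts in the control libraries of LIF/serum and 13.4 and 5.85 in those of Dax1KO cells. In 2i/LIF the controls had 457 and 300, and Nr0b1 was at 0 in both libraries of Dax1KO cells, at least 129-fold lower if 3 counts are allowed in each Dax1KO library. The difference between media was not called for this gene (adjusted P = 0.454). Pou5f1, Sox2, Nanog and Zfp42, which define the ESC state, were abundant in all 4 groups and none was called. Many low counts sat at 3 (1348 to 1587 genes per library, against 823 to 940 genes at 2), so single counts at this level may not stand for separate fragments.

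Where the Dax1KO effect depended on the medium, it was more often higher in LIF/serum than in 2i/LIF, through increases in LIF/serum or decreases in 2i/LIF. The 596 called genes were 2.87% of those tested. The Dax1KO effect was higher in LIF/serum for 425 of them (2.05% of genes tested) and lower for 171 (0.824%). For comparison, 3041 genes (14.7%) were called for Dax1KO against control in LIF/serum and 656 (3.16%) in 2i/LIF. The count of 596 depended on every library. It fell to 36 without the second Dax1KO library of 2i/LIF and to 344 without the first control library of LIF/serum, with the other 6 between these values, and DESeq2 in place of edgeR called 1442 genes.

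There were 418 serum-only genes, 110 2i-only genes, 34 opposite-sign genes and 5 same-sign genes, and 29 called genes passed the threshold in neither medium alone. Most genes called in only 1 medium were not shown to differ between media. Of the 2754 genes called in LIF/serum alone, 418 (15.2%) were called for the difference, and of the 369 called in 2i/LIF alone, 110 (29.8%) were. Of the 253 genes called in both media in the same direction, 5 (1.98%) were called for the difference. The words serum-only and 2i-only refer to calls and not to an absent effect in the other medium: 147 of the 418 serum-only genes had an unadjusted P under 0.05 in 2i/LIF, and 82 of them had an estimated change of at least 1.5-fold there. Of the 110 2i-only genes, 32 had an unadjusted P under 0.05 in LIF/serum and 23 had an estimate of at least 1.5-fold. The estimates in the 2 media had opposite signs in 438 of the 596 called genes, and in 39.3% of all genes tested. Choosing genes by the difference raises the number among called genes by itself.

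**Figure D1:**
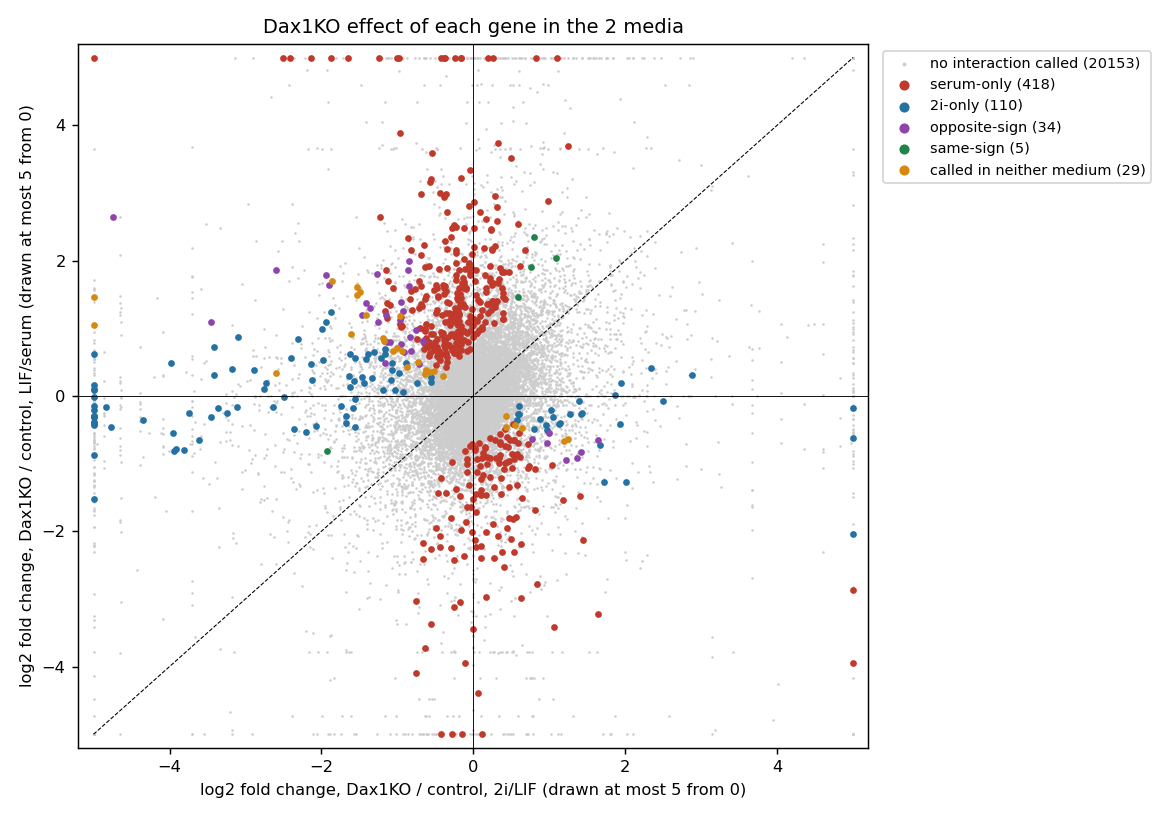
Log2 fold change of Dax1KO against control in 2i/LIF (horizontal axis) and in LIF/serum (vertical axis) for each of 20749 genes. Values beyond 5 are drawn at 5, and the dashed line marks equal effects. Serum-only genes (418) spread along the vertical axis, mostly upwards, 2i-only genes (110) along the horizontal axis, mostly to the left, and opposite-sign genes (34) lie in the upper left and lower right.

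The classes differed in direction. Of the serum-only genes, 288 rose and 130 fell in LIF/serum. Of the 2i-only genes, 28 rose and 82 fell in 2i/LIF. Among opposite-sign genes, 27 rose in LIF/serum and fell in 2i/LIF, and 7 did the reverse. In serum-only genes that rose, LIF/serum had a median log2 change of 1.38 and 2i/LIF one of -0.23. In 2i-only genes that fell, the medians were 0.09 in LIF/serum and -2.38 in 2i/LIF.

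Control cells of the 2 media differed in the level of many of these genes. Serum-only genes that rose were lower in control cells of LIF/serum than of 2i/LIF, by a median of 1.67 on the log2 scale, and the 27 opposite-sign genes that rose in LIF/serum by a median of 1.40. Serum-only genes that fell were higher in control cells of LIF/serum, with a median difference of -0.98 (2i/LIF minus LIF/serum), and the 7 opposite-sign genes that fell in LIF/serum had a median difference of -2.12. These differences share the control libraries with the Dax1KO effects, so they are given only as values side by side.

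**Figure D2:**
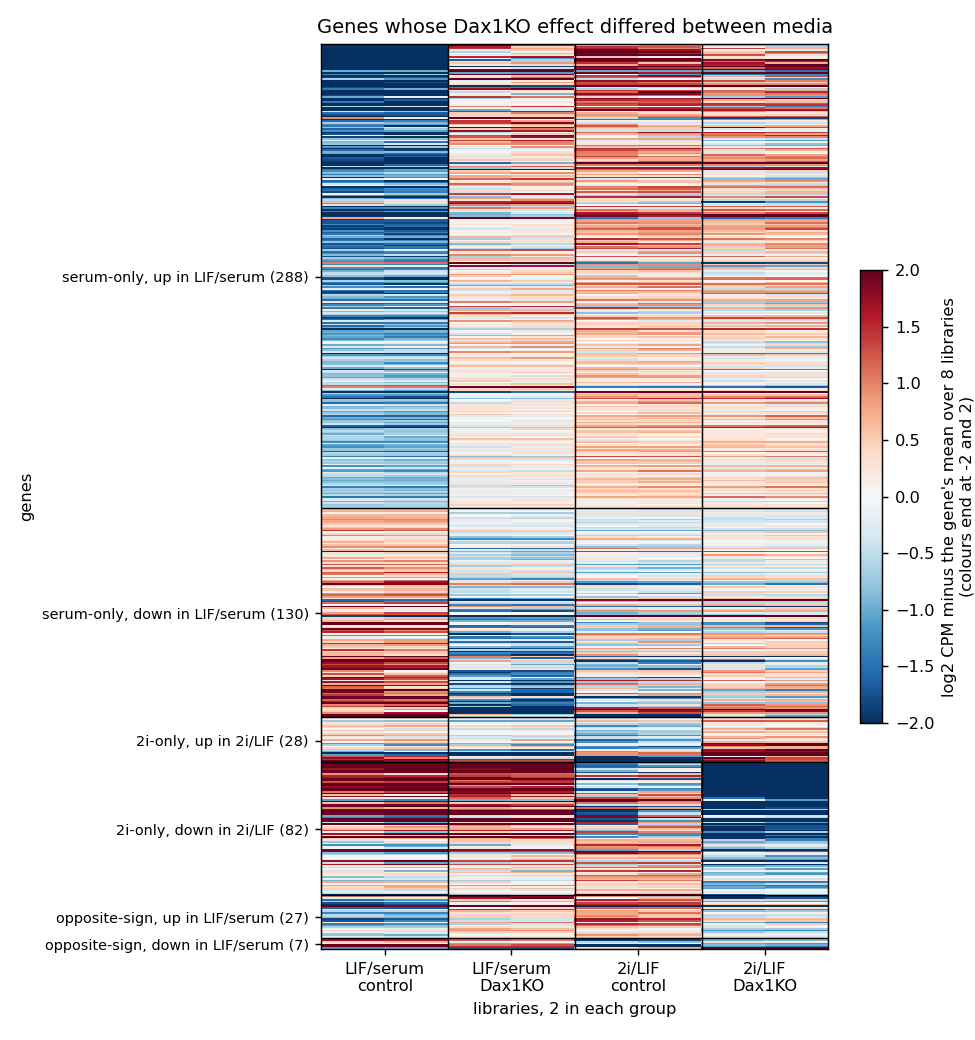
Log2 CPM of each gene of the 3 classes (rows) in the 8 libraries (columns), minus the gene's mean over the libraries. In the upper block of 288 serum-only genes, the Dax1KO libraries of LIF/serum lie above the controls of that medium. In the 82 2i-only genes that fell, the Dax1KO libraries of 2i/LIF lie below the controls of that medium. The lowest group differs from gene to gene: Gata4, for example, was lowest in 2i/LIF and Ly6a in LIF/serum.

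Among serum-only increases that met the naming rule, those with the smallest P were Slc1a1, Tmem231, Plxdc1, Efnb3, Rbm44 and Ctsc, single genes of varied function. Slc1a1 (chr19:28835049-28913960, GRCm38) encodes a glutamate and cysteine transporter. It had 116 and 131 normalized counts in the control libraries of LIF/serum and 953 and 1023 in the Dax1KO libraries, against 2008 and 1965 in control and 1470 and 1471 in Dax1KO libraries of 2i/LIF. The Dax1KO libraries thus lay above the controls in LIF/serum and below them in 2i/LIF. The log2 difference of effects was 3.43 ± 0.19 (SE, adjusted P = 0.00152), with 3.00 in LIF/serum and -0.43 in 2i/LIF (adjusted P = 0.116). Slc1a1 overlaps the annotated genes 4430402I18Rik and Gm5822 on the opposite strand, and whether strand was used in counting is not stated.

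Efnb3, an ephrin ligand that signals at cell contacts, had 122 and 97.1 normalized counts in control and 1026 and 1017 in Dax1KO libraries of LIF/serum. In 2i/LIF it had 491 and 631 in control and 580 and 424 in Dax1KO libraries, which overlap. Its log2 difference was 3.38 ± 0.31 (adjusted P = 0.00482). Plxdc1, a membrane protein named for a plexin-like domain, went from 160 and 171 to 1206 and 1090 in LIF/serum, above its level of 266 and 266 in control and 349 and 311 in Dax1KO libraries of 2i/LIF. The log2 difference was 2.48 ± 0.22 (adjusted P = 0.00482).

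Tmem231, a protein of the ciliary transition zone, had 1209 and 1243 normalized counts in control and 4353 and 4377 in Dax1KO libraries of LIF/serum. In 2i/LIF all 4 libraries lay between 6423 and 6977. Rbm44, an RNA-binding protein of germ cells, behaved alike, with 107 and 102 in control and 404 and 496 in Dax1KO libraries of LIF/serum and 2123 to 2266 in the 4 libraries of 2i/LIF. Ctsc, a lysosomal cysteine protease, had 708 and 578 in control and 2055 and 1842 in Dax1KO libraries of LIF/serum. In 2i/LIF it had 2461 and 2621 in control and 1912 and 1963 in Dax1KO libraries. The log2 differences were 1.88 ± 0.14 for Tmem231, 2.11 ± 0.20 for Rbm44 and 1.99 ± 0.20 for Ctsc, with adjusted P values of 0.00324, 0.00586 and 0.00613.

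Serum-only decreases included a transcription factor of growth, a ubiquitin ligase adaptor and 2 GTPases of nutrient sensing. Mycn (chr12:12936093-12941914), a MYC family factor that drives growth of ESCs, had 9044 and 8958 normalized counts in control and 3331 and 3144 in Dax1KO libraries of LIF/serum. In 2i/LIF it had 4961 and 4579 in control and 4167 and 4293 in Dax1KO libraries. The Dax1KO level in LIF/serum was thus below all libraries of 2i/LIF. The log2 difference was -1.30 ± 0.14 (adjusted P = 0.00876).

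Klhl13, an X-linked adaptor of a CUL3 ubiquitin ligase, had 17828 and 15494 normalized counts in control and 3141 and 3932 in Dax1KO libraries of LIF/serum, against 5568 and 6052 in control and 4120 and 4437 in Dax1KO libraries of 2i/LIF. Its log2 difference was -1.79 ± 0.20 (adjusted P = 0.00876). Rragb and Rragd encode GTPases that recruit mTORC1 to the lysosome when amino acids are present. Rragb went from 862 and 828 to 225 and 213 in LIF/serum, with 135 and 149 in control and 213 and 175 in Dax1KO libraries of 2i/LIF. Rragd fell from 1352 and 1135 to 507 and 493 in LIF/serum, and in 2i/LIF it had 2002 and 2137 in control and 2948 and 3236 in Dax1KO libraries (adjusted P = 0.0586 there). The log2 differences were -2.40 ± 0.25 for Rragb and -1.89 ± 0.19 for Rragd. The other 2 Rag GTPase genes, Rraga and Rragc, were not called, with differences of 0.24 and -0.20.

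The Xlr3, Xlr4 and Xlr5 genes, a cluster of X-linked lymphocyte-regulated genes that encode nuclear proteins related to the synaptonemal complex protein SYCP3, fell together in LIF/serum. The 9 genes tested lie between positions 73074345 and 73292976 of chromosome X (GRCm38). They were grouped as a family after their values were seen. In LIF/serum 8 of the 9 genes fell by the threshold (14.7% of all genes were called there in either direction). In 2i/LIF none was called, and none had an unadjusted P under 0.05. The difference was called for 7 of the 9, against 2.87% of all genes.

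Xlr3c had 2866 and 3218 normalized counts in control and 527 and 607 in Dax1KO libraries of LIF/serum, against 3526 and 3472 in control and 2898 and 2939 in Dax1KO libraries of 2i/LIF. Its log2 difference was -2.16 ± 0.17 (adjusted P = 0.00324). Xlr5b had 1177 and 1187 in control and 337 and 382 in Dax1KO libraries of LIF/serum, and 1446 to 1624 in the 4 libraries of 2i/LIF. In both genes the Dax1KO libraries of LIF/serum stood below the other 6 libraries. Xlr3a went the other way, with 1429 and 1596 in control and 2505 and 1734 in Dax1KO libraries of LIF/serum, and was not called (difference 0.75, adjusted P = 0.223). At 95% identity or more, Xlr3c matched Xlr3b over 99.9% of its transcript and Xlr4c matched Xlr4b over 74.1%, and Xlr5a spans several of the other genes, so the split of reads among these genes is uncertain.

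The 150 bases before the RefSeq start of 4 members are printed (GRCm38.p6), 5′ to 3′. A match to the CCAAT box (CCAATCAG, searched on both strands) is in capitals. Over the 250 bases before the start, Xlr3b and Xlr3c were 98.3% identical over 230 aligned bases, and Xlr5a and Xlr5b 100% identical over 205. Such likeness was found only within the Xlr3, Xlr4 or Xlr5 genes. Pairs from different ones of these groups aligned over too few bases to be compared, as did Xlr5c with every other gene.
Xlr3b: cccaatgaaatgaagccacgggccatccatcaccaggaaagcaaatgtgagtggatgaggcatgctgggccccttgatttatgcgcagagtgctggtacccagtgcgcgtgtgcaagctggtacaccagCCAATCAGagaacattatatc
Xlr3c: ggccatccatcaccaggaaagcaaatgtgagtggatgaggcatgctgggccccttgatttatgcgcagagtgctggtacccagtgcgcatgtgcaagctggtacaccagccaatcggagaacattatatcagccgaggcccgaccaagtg
Xlr4b: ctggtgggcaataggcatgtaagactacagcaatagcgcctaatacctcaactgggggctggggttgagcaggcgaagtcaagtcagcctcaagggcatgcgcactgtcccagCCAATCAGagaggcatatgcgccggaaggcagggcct
Xlr5b: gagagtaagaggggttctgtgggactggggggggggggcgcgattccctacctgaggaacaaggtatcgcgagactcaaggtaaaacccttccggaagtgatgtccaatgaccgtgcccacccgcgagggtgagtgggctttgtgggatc
The pieces lie at chrX:73192029-73192178 (plus strand) for Xlr3b, chrX:73265391-73265540 (minus strand) for Xlr3c, chrX:73214183-73214332 (plus strand) for Xlr4b and chrX:73148691-73148840 (plus strand) for Xlr5b. The exact motif was in Xlr3b and Xlr4b, and these letters were not in the windows of Xlr3c and Xlr5b, while all 4 genes fell in LIF/serum. It was in 5.39% of windows of this length before the 13071 tested genes with a RefSeq promoter.

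Among 2i-only decreases were genes of the 2-cell-like state. This rare and transient state of ESC cultures resembles the 2-cell embryo, and Zscan4 genes, which encode zinc finger proteins that act at telomeres, are its best known markers. Zscan4a to Zscan4f, 6 genes of which Zscan4a is annotated as a pseudogene (between 10794242 and 11402318 on chromosome 7) and Tdpoz4 were called for the difference, 7 of the 12 genes of the list that were tested, and all 7 were 2i-only decreases. The median log2 difference of the list, with a prior count of 2, was 2.62 against 0.02 over all genes, and it was 3.76 with a prior count of 0.5. With the 4 members at 0 in both Dax1KO libraries of 2i/LIF set to their bounds, the median of the fitted differences was 3.00 in place of 3.73. The number called was between 1 and 7 when 1 library was left out. It was 1 without the first Dax1KO library of 2i/LIF, 2 without the second or without either Dax1KO library of LIF/serum, and 4 without the second control library of 2i/LIF.

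Zscan4d had 2430 and 3254 normalized counts in control and 2122 and 2004 in Dax1KO libraries of LIF/serum. In 2i/LIF the control libraries had 114 and 212 and the Dax1KO libraries 7.78 and 3.91. The log2 difference was 4.31 ± 0.54 (adjusted P = 0.0126). Zscan4f and Zscan4c had the same order, with 115 and 211 against 17.5 and 16.6 for Zscan4f and 89.2 and 160 against 14.6 and 7.82 for Zscan4c in 2i/LIF. Zscan4a had 61.2 and 58.0 in control libraries of 2i/LIF and was at 0 in both Dax1KO libraries, at least 20.4-fold lower if 3 counts are allowed in each. For Zscan4b and Tdpoz4, also at 0 in both Dax1KO libraries, the bounds were at least 8.90-fold and at least 9.93-fold lower. In LIF/serum edgeR called no gene of the list (2 had an unadjusted P under 0.05). The summed normalized counts of the list lay between 18189 and 23139 in control and between 16332 and 17187 in Dax1KO libraries. In 2i/LIF the sums were 661 to 1212 in control and 111 to 129 in Dax1KO libraries. In bulk RNA, fewer cells in this state and less RNA per such cell cannot be told apart.

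The 4 Zscan4 genes with a RefSeq promoter share much of their upstream sequence. For 3 of them the 150 bases before the RefSeq start are shown (GRCm38.p6), 5′ to 3′. The TATA box (TATAAAA, searched on both strands) is in capitals. Both motifs were chosen after the sequences were seen.
Zscan4b: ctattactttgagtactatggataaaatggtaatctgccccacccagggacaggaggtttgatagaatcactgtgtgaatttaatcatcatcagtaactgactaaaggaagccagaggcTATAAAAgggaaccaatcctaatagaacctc
Zscan4d: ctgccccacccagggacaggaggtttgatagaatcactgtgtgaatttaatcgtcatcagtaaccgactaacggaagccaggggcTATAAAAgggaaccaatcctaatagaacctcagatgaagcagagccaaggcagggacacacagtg
Zscan4f: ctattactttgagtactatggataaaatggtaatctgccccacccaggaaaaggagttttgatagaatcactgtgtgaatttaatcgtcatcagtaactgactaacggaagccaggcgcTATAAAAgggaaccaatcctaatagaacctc
These pieces lie at chr7:10905051-10905200 (minus strand) for Zscan4b, chr7:11166149-11166298 (minus strand) for Zscan4d and chr7:11397765-11397914 (plus strand) for Zscan4f. Zscan4d and Zscan4f were 96.8% identical over 216 aligned bases before the start. The motif was in all 4 Zscan4 genes with a RefSeq promoter and in 1.63% of the windows of all tested genes. Zscan4d and Zscan4f matched the pseudogene Zscan4-ps2 over 100% and 98.7% of their transcripts, so the counts of single members are uncertain.

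**Figure D3:**
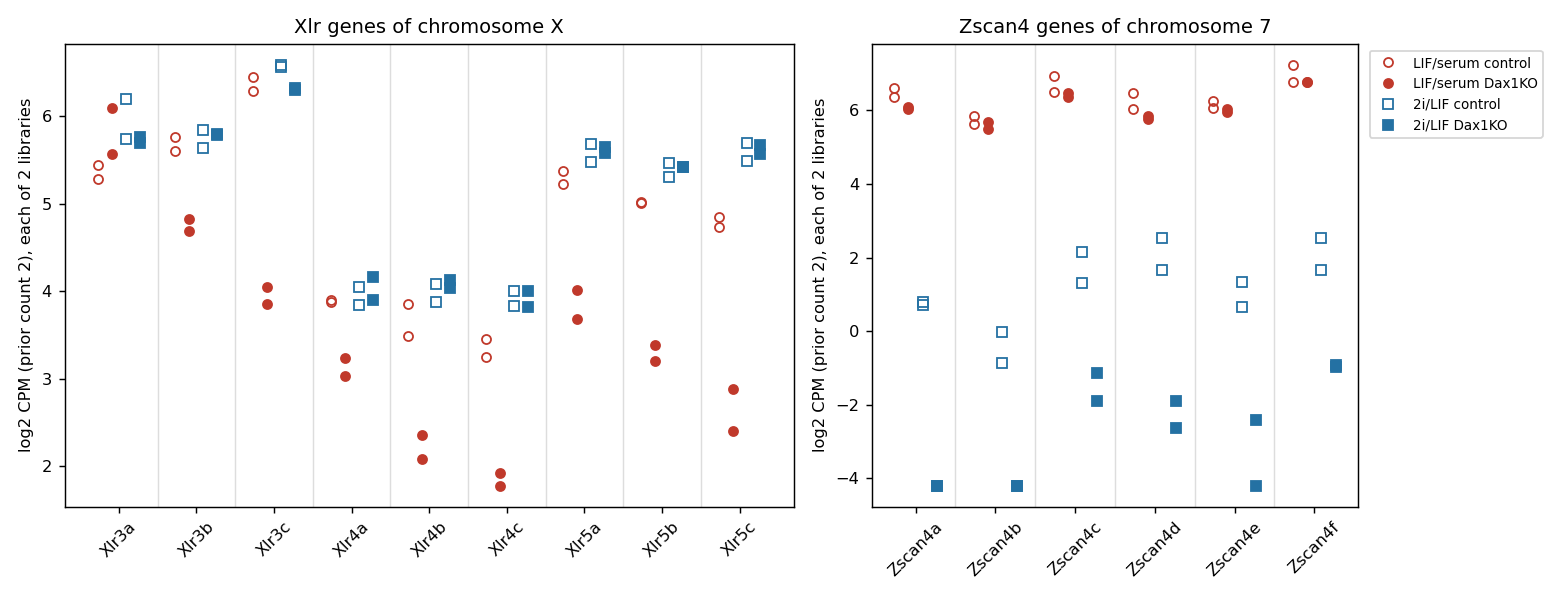
Log2 CPM (prior count 2) of 9 Xlr genes (left) and 6 Zscan4 genes (right) in each of the 2 libraries of 4 groups. In all Xlr genes but Xlr3a, the filled circles (Dax1KO in LIF/serum) lie below the other groups. In all Zscan4 genes the filled squares (Dax1KO in 2i/LIF) lie below the open squares, while the 2 groups of LIF/serum lie far above both.

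The 2i-only decreases named by P outside the Zscan4 genes were single genes of varied function. Loxl3 (chr6:83034173-83052562), a lysyl oxidase that crosslinks collagen, had 310 and 303 normalized counts in control and 38.9 and 18.6 in Dax1KO libraries of 2i/LIF. In LIF/serum its 4 libraries lay between 16 and 22.4. The log2 difference was 3.72 ± 0.53 (adjusted P = 0.019), and the gene overlaps Htra2 on the opposite strand. Ly6a, the surface antigen Sca-1, had 761 and 1389 in control and 209 and 226 in Dax1KO libraries of 2i/LIF, and 24.5 to 53.6 in LIF/serum. Mgat3, a glycosyltransferase that adds a bisecting sugar to N-glycans, went from 683 and 610 to 230 and 237 in 2i/LIF, with 621 and 674 in control and 676 and 903 in Dax1KO libraries of LIF/serum. Its log2 difference was 1.76 ± 0.26 (adjusted P = 0.02).

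Genes of the retinoic acid list also belonged to this class. Meis2, a homeobox cofactor of Hox proteins, had 1309 and 1079 normalized counts in control and 357 and 446 in Dax1KO libraries of 2i/LIF, and 169 to 226 in LIF/serum. Crabp1, which binds retinoic acid in the cytosol, had 2230 and 2270 in control and 1231 and 1195 in Dax1KO libraries of 2i/LIF. In LIF/serum it had 682 and 865 in control and 1060 and 1097 in Dax1KO libraries, which was not called (adjusted P = 0.0598). The log2 differences were 1.79 ± 0.27 and 1.37 ± 0.20. Of the 14 retinoic acid genes tested, no other was called.

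2i-only increases were fewer, with 28 genes of varied function. Bcam (chr7:19756131-19771016), a laminin-binding adhesion molecule, had 2160 and 2185 normalized counts in control and 5948 and 5428 in Dax1KO libraries of 2i/LIF. In LIF/serum it had 3861 and 3525 in control and 3265 and 3724 in Dax1KO libraries, which overlap. The log2 difference was -1.47 ± 0.17 (adjusted P = 0.00927). B3gnt5, the enzyme that starts lacto-series glycolipids, went from 390 and 309 to 1295 and 1396 in 2i/LIF and lay between 159 and 189 in LIF/serum. Its log2 difference was -1.75 ± 0.24 (adjusted P = 0.0166).

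The 13 genes of the epithelial and mesenchymal state had a median difference of -0.05, with 4 above 0 (against 10683 of all 20749 genes tested). Epcam, an epithelial adhesion molecule, was the 1 call among them. It had 1768 and 2240 normalized counts in control and 4035 and 4120 in Dax1KO libraries of 2i/LIF, below the 5671 to 7410 of the 4 libraries of LIF/serum. Fignl2, a gene named for its likeness to fidgetin, went from 179 and 216 to 714 and 799 in 2i/LIF, with 639 and 709 in control and 479 and 535 in Dax1KO libraries of LIF/serum. Acsl5 (an acyl-CoA synthetase) and Zfp263 (a zinc finger protein) rose in 2i/LIF by 0.97 and 0.95 on the log2 scale, and their values in LIF/serum were -0.50 and -0.43, which were not called. Gata2, a trophectoderm factor, had 425 and 335 in control and 1249 and 1522 in Dax1KO libraries of 2i/LIF, and 153 to 234 in LIF/serum (log2 difference -1.85 ± 0.39, adjusted P = 0.0482).

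The 34 opposite-sign genes separated in both media, with no overlap between the 2 control and 2 Dax1KO libraries. Choosing genes by a call in each medium selects for this. All 418 serum-only genes likewise separated in LIF/serum and all 110 2i-only genes in 2i/LIF. Dpp4 (chr2:62330073-62412231), a cell surface peptidase, had 997 and 854 normalized counts in control and 2145 and 1808 in Dax1KO libraries of LIF/serum, whereas in 2i/LIF it had 788 and 662 in control and 58.4 and 74.3 in Dax1KO libraries. The log2 changes were 1.09 and -3.45 in that order of media, and the difference was 4.54 ± 0.27 (adjusted P = 0.00152). Dcdc2a, a doublecortin family protein of microtubules and cilia, rose from 4.24 and 8.53 to 36.4 and 44.9 in LIF/serum and fell from 613 and 547 to 14.6 and 28.3 in 2i/LIF. Nptx2, a secreted pentraxin, rose from 1042 and 1074 to 2520 and 2303 in LIF/serum and fell from 2707 and 2282 to 874 and 939 in 2i/LIF. The differences were 7.39 ± 0.56 for Dcdc2a and 2.65 ± 0.19 for Nptx2 (both adjusted P = 0.00324).

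Htra1, Pou2f3 and Thy1 had the same pattern. Htra1, a secreted serine protease, rose from 844 and 808 to 2205 and 2113 in LIF/serum and fell from 2566 and 2425 to 1192 and 1387 in 2i/LIF, and it overlaps Fgfr2 on the opposite strand. Pou2f3, an octamer-binding factor, rose from 257 and 243 to 804 and 1010 and fell from 1778 and 1726 to 970 and 952. In Thy1, a surface antigen of fibroblasts and neurons, the Dax1KO libraries met near one level, with 1288 and 1250 in LIF/serum (control 413 and 409) and 1091 and 1086 in 2i/LIF (control 1726 and 2189). Cyp11a1, which makes the first steroid from cholesterol and was looked up after its value was seen, rose from 102 and 78.9 to 225 and 221 in LIF/serum and fell from 64.2 and 76.0 to 23.3 and 31.3 in 2i/LIF (difference 2.66 ± 0.39, adjusted P = 0.02). Of the other steroid synthesis genes looked up, Star and Hsd17b1 were not called, with differences of -0.28 and 1.58.

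The reverse pattern, lower in LIF/serum and higher in 2i/LIF, was found in 7 genes, among them targets of BMP and ERK signalling. Id1 (chr2:152736251-152737410), a BMP target that blocks basic helix-loop-helix factors, had 2947 and 3288 normalized counts in control and 1600 and 1897 in Dax1KO libraries of LIF/serum, against 126 and 176 in control and 418 and 386 in Dax1KO libraries of 2i/LIF. Its difference was -2.25 ± 0.26 (adjusted P = 0.00942). Junb, an AP-1 subunit and immediate-early gene, went from 2370 and 2694 to 1463 and 1647 in LIF/serum and from 1167 and 947 to 2250 and 1905 in 2i/LIF. Spry2, a feedback inhibitor of ERK signalling, went from 3886 and 4103 to 2858 and 2304 in LIF/serum and from 1015 and 825 to 1721 and 1435 in 2i/LIF. Junb overlaps Prdx2 on the opposite strand. In Id1 and Spry2 the gap between the media was narrower in Dax1KO than in control cells, whereas in Junb the order of the media turned.

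Pax8, a paired box factor, went from 187 and 197 to 123 and 121 in LIF/serum and from 519 and 665 to 1776 and 1913 in 2i/LIF. The difference was -2.29 ± 0.24 (adjusted P = 0.0082). Ap3b2, a subunit of the AP-3 adaptor of vesicle traffic, went from 260 and 323 to 149 and 152 in LIF/serum and from 241 and 289 to 579 and 650 in 2i/LIF. Its control levels overlapped between media, and its difference was -2.16 ± 0.27 (adjusted P = 0.013).

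**Figure D4:**
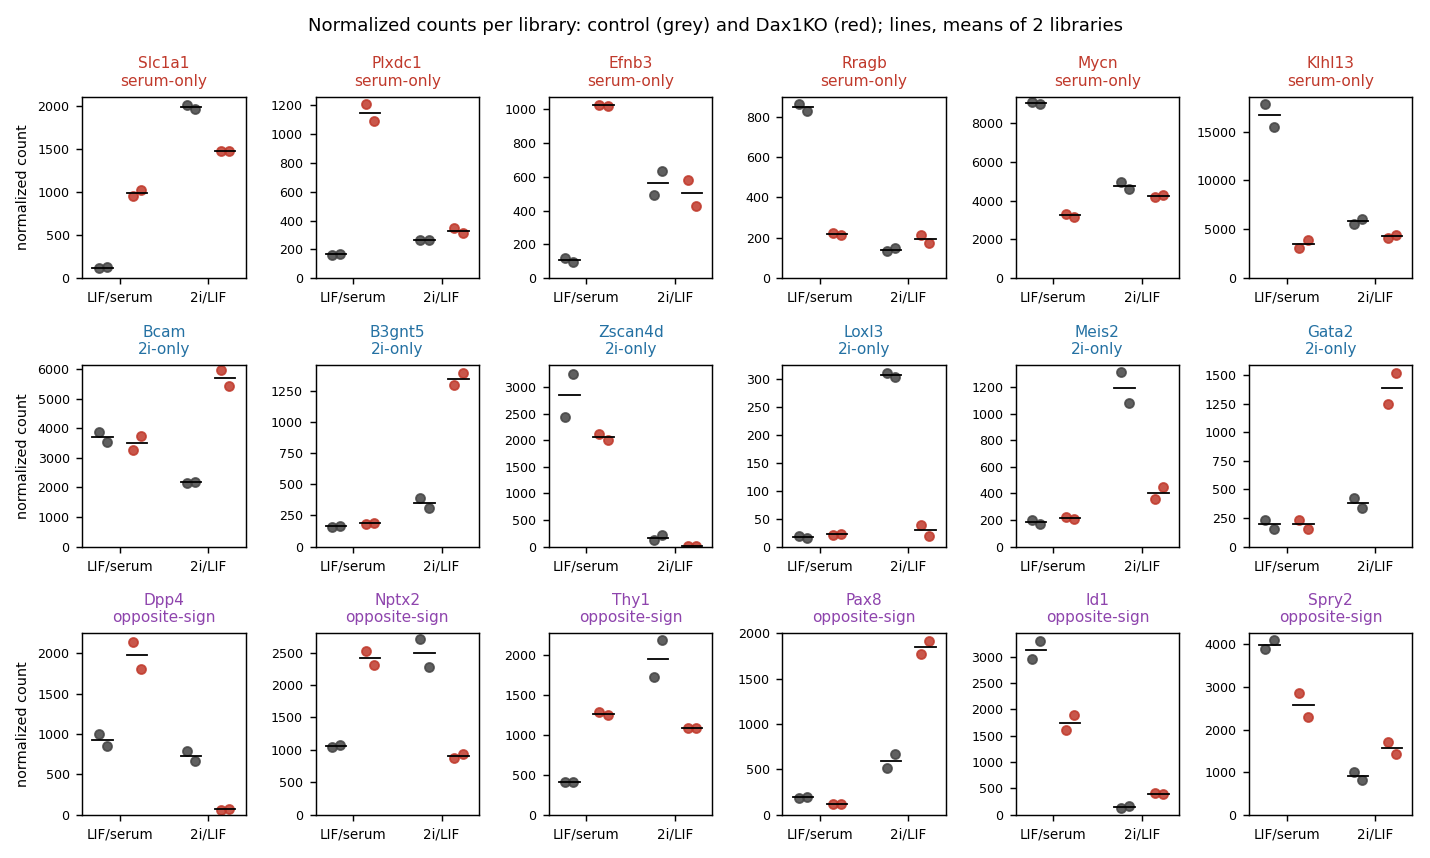
Normalized counts of 18 genes in each library, control in grey and Dax1KO in red, with a line at the mean of the 2 libraries and a linear axis from 0. Rows show serum-only, 2i-only and opposite-sign genes. Thy1, Dpp4 and Nptx2 rise in LIF/serum and fall in 2i/LIF, and Pax8, Id1 and Spry2 do the reverse.

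The 5 same-sign genes changed in one direction in both media by different amounts. Rap1gap2, a GTPase activator for Rap1, had 127 and 131 normalized counts in control and 682 and 634 in Dax1KO libraries of LIF/serum, and 285 and 284 against 497 and 496 in 2i/LIF. Aldh1l1, a folate enzyme, rose by 2.04 and 1.09 on the log2 scale in LIF/serum and 2i/LIF, Plxnd1, a semaphorin receptor, by 1.90 and 0.76, and Acadvl, an enzyme of mitochondrial fat oxidation, by 1.45 and 0.59. Clip3, a microtubule-linked protein, fell more in 2i/LIF (-1.93) than in LIF/serum (-0.82). Plxnd1 and Aldh1l1 lie on chromosome 6, whose genes were higher in Dax1KO cells of both media, with median log2 changes of 0.52 and 0.44, and 3 same-sign genes were called without that chromosome.

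Pathways and cell states were described with lists of genes, by the number of members called beside the 2.87% of all genes and by the median difference beside 0.02 over all genes. Counts of members above 0 stand beside 10683 of all 20749 genes tested. The lists were chosen with earlier results of these data known, so these shares are only values side by side, and no list was tested. Calls within the lists rested on every library: of 25 lists with a call, 21 had none when 1 of the 8 libraries was left out. None of the 14 naive and 8 core pluripotency factors tested was called with edgeR, with median differences of 0.18 and 0.15. An unadjusted P under 0.05 was reached by 7 naive factors and 1 core factor, and DESeq2 called 3 and 0. Klf2, a naive factor that acts downstream of ERK blockade, fell in both media, by 1.14 on the log2 scale in LIF/serum and by 0.76 in 2i/LIF, with no call for the difference (adjusted P = 0.412). Of the 18 formative and primed genes tested, Lefty1 and Zic2 were called, both serum-only decreases. Lefty1, a Nodal inhibitor, had 3525 and 4234 normalized counts in control and 905 and 758 in Dax1KO libraries of LIF/serum, and 98.2 to 219 in 2i/LIF. Zic2, a zinc finger factor of primed cells, had 1031 and 1317 in control and 260 and 233 in Dax1KO libraries of LIF/serum, and 861 to 1412 in 2i/LIF.

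Genes of the primitive endoderm, the extraembryonic lineage that faces the blastocyst cavity, were in part higher in Dax1KO cells of LIF/serum. Of 19 tested, 5 were called, all with a higher Dax1KO effect in LIF/serum, and the median difference was 1.46. In LIF/serum 10 of the 19 rose and none fell (14.7% of all genes were called there in either direction), and in 2i/LIF 1 rose and 2 fell (3.16%). Gata4, a master factor of the lineage, had 893 and 736 normalized counts in control and 2351 and 2069 in Dax1KO libraries of LIF/serum, and 309 to 364 in 2i/LIF. Its difference was 1.6 ± 0.22 (adjusted P = 0.0161).

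Gata6, which acts first in this lineage, had 722 and 517 in control and 1665 and 1550 in Dax1KO libraries of LIF/serum, and 241 and 275 against 79.8 and 155 in 2i/LIF (difference 2.51 ± 0.42, adjusted P = 0.0286). Sparc, a matrix glycoprotein, went from 13051 and 11121 to 26585 and 26113 in LIF/serum and lay between 10371 and 12802 in 2i/LIF. Srgn, a secretory granule proteoglycan, was an opposite-sign gene, rising from 2216 and 1684 to 5057 and 5010 in LIF/serum and falling from 108 and 106 to 35 and 45 in 2i/LIF. Col4a2, a basement membrane collagen, went from 5060 and 3463 to 13585 and 10497 in LIF/serum and overlaps Col4a1 on the opposite strand. The summed normalized counts of the list were 58182 to 91374 in control and 131263 to 171615 in Dax1KO libraries of LIF/serum, against 48379 to 51362 in control and 32875 to 36057 in Dax1KO libraries of 2i/LIF. When 1 library was left out, between 1 and 6 of the 19 were called, with 1 without the first Dax1KO library of 2i/LIF, 6 without the first control library of LIF/serum and 2 or 3 without any of the other 6. DESeq2 called 11.

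Markers of other lineages moved less uniformly. Of 16 trophectoderm genes tested, 4 were called, 3 with a higher and 1 (Gata2, described above) with a lower Dax1KO effect in LIF/serum. The median difference of the list was -0.38 (-0.05 with a prior count of 0.5), and 7 of 16 lay above 0. In LIF/serum 5 members rose and 1 fell (14.7% of all genes were called there in either direction). In 2i/LIF 4 rose and none fell (3.16%). When 1 library was left out, 0 to 2 were called, with 2 without either control library of LIF/serum and 0 without any 1 of the 4 Dax1KO libraries. Tfap2a and Hand1, transcription factors of that lineage, were serum-only increases. Tfap2a went from 113 and 148 to 379 and 388 in LIF/serum and from 232 and 227 to 150 and 110 in 2i/LIF. Hand1 went from 104 and 71.5 to 352 and 389 and from 142 and 84.0 to 62.2 and 78.2. Esx1, an X-linked homeobox gene of the placenta, was called for the difference (3.02 ± 0.54, adjusted P = 0.0348) but in neither medium, with 14.8 and 33.1 against 81.3 and 53.6 in LIF/serum and 1334 and 2128 against 521 and 678 in 2i/LIF. None of the 16 mesoderm and primitive streak genes was called with edgeR or DESeq2, and none had an unadjusted P under 0.05. Of 9 neural genes, Pax6, an eye and forebrain factor, fell from 143 and 243 to 45.9 and 32.2 in LIF/serum and had 98.0 to 147 in 2i/LIF.

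Of 8 genes of fibroblasts and feeder cells tested, Thy1 and Col5a1 were called, both opposite-sign. The other 6 members went partly the other way: the median difference of the list was -0.02, with 3 of 8 above 0, and Pdgfrb, a receptor of mesenchymal cells, rose in both media by 1.79 and 1.81 on the log2 scale. The number called was between 1 and 3 when 1 library was left out. The summed normalized counts, to which Thy1 and Col5a1 gave the most, lay between 1222 and 1337 in control and 3108 and 3162 in Dax1KO libraries of LIF/serum, and between 3655 and 4022 in control and 2814 and 3097 in Dax1KO libraries of 2i/LIF. The part of other cells in these values was not tested.

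Hox genes, which pattern the body axis and are kept silent in ESCs by Polycomb, were partly higher in Dax1KO cells of LIF/serum. Of 32 tested, 6 were called for the difference, all serum-only increases. A difference above 0 was found in 29 (against 10683 of all 20749 genes tested), and the median was 1.59. In LIF/serum 10 of 32 rose, none fell and 22 did not pass the test, where 14.7% of all genes were called in either direction, and in 2i/LIF none was called (4 had an unadjusted P under 0.05). Hoxa9 (chr6:52223100-52231089) had 4.24 and 8.53 normalized counts in control and 48.8 and 67.3 in Dax1KO libraries of LIF/serum, still below the 197 and 190 in control and 143 and 116 in Dax1KO libraries of 2i/LIF. Its difference was 3.74 ± 0.49 (adjusted P = 0.0148).

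Hoxc13, Hoxc4, Hoxc10, Hoxd13 and Hoxa10 had the same order of groups, lowest in control cells of LIF/serum. Hoxc13 went from 144 and 183 to 513 and 514 in LIF/serum and had 628 to 833 in 2i/LIF. Hoxc4 went from 9.54 and 8.53 to 38.3 and 64.3, with 250 to 321 in 2i/LIF. Hoxc10 overlaps Hoxc5 on the same strand. By cluster, the median differences were 1.53 for 10 Hoxa genes, 1.13 for 6 Hoxb genes, 1.78 for 9 Hoxc genes and 1.6 for 7 Hoxd genes. None of 24 Polycomb subunit genes was called with edgeR (5 had an unadjusted P under 0.05), and 1 was called with DESeq2. The number of Hox genes called was between 0 and 4 when 1 library was left out. It was 0 without either Dax1KO library of 2i/LIF, the second control library of 2i/LIF or the second Dax1KO library of LIF/serum, 2 without the first control library of 2i/LIF or the first Dax1KO library of LIF/serum, and 4 without either control library of LIF/serum.

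Genes of cholesterol synthesis and uptake are controlled together by the factor SREBP2. Of 23 tested, 15 rose and none fell in LIF/serum (14.7% of all genes were called there in either direction), whereas 1 rose and none fell in 2i/LIF (3.16%). The difference was called for 5, all serum-only increases and among them Nsdhl, Fdft1, Insig1 and Mvd, and the median difference was 0.66. Mvd, an enzyme of the mevalonate pathway, had 2364 and 2637 normalized counts in control and 4208 and 4890 in Dax1KO libraries of LIF/serum, against 2536 to 2738 in the 4 libraries of 2i/LIF. Its difference was 0.87 ± 0.17 (adjusted P = 0.0432). Insig1, which holds SREBP proteins in the endoplasmic reticulum, had 2612 and 2558 in control and 5001 and 5217 in Dax1KO libraries of LIF/serum, and 11311 to 14212 in the 4 libraries of 2i/LIF. When 1 library was left out, 1 of the 23 was called without either control library of LIF/serum and 0 without any of the other 6, and DESeq2 called 8.

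Ribosome biogenesis genes are typical targets of MYC factors. Of 22 tested, 11 fell and none rose in LIF/serum (14.7% of all genes were called there in either direction). In 2i/LIF 1 rose and none fell (3.16%), and no member had a difference above 0. The median difference was -0.40, and 3 were called. Ncl (nucleolin) had 125106 and 129156 normalized counts in control and 78953 and 75775 in Dax1KO libraries of LIF/serum, against 65282 to 73351 in the 4 libraries of 2i/LIF. Gnl3 (nucleostemin) and Wdr43, both nucleolar proteins, had differences of -0.70 and -0.77. All 3 genes host or overlap small nucleolar RNA genes. None of the 72 ribosomal protein genes was called with edgeR or DESeq2 or had an unadjusted P under 0.05, and their median difference was -0.16. No ribosome biogenesis gene was called when any 1 library was left out, and DESeq2 called 5.

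Among cell cycle and stress genes, 3 of 15 p53 targets were called, all serum-only increases (0 to 2 when 1 library was left out, with 2 without the first control library of LIF/serum). Cdkn1a, the inhibitor p21, had 2215 and 2401 normalized counts in control and 4766 and 5412 in Dax1KO libraries of LIF/serum, and 5210 to 7347 in 2i/LIF (difference 1.37 ± 0.21, adjusted P = 0.0224). Sesn1, a sestrin that restrains mTORC1, and Ei24 had differences of 1.13 and 0.92. Of 20 genes of the ATF4 response and serine synthesis, Asns (asparagine synthetase) and Pycr1 (a proline synthesis enzyme) were called. Asns went from 10492 and 11425 to 25771 and 28918 in LIF/serum and had 24332 to 33928 in 2i/LIF. With edgeR none of 12 proapoptotic genes, 9 antiapoptotic genes, 24 glycolysis genes or 11 NRF2 targets was called for the difference, and 1, 0, 4 and 5 of them had an unadjusted P under 0.05. DESeq2 called 3 glycolysis genes, 3 NRF2 targets and none of the apoptosis genes for it. Within LIF/serum, 4 proapoptotic and 6 glycolysis genes rose and 2 NRF2 targets fell (14.7% of all genes were called there in either direction). Within 2i/LIF, 2 proapoptotic genes and 1 glycolysis gene rose and 1 NRF2 target fell (3.16%).

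Among signalling lists, calls were few. Of 18 MEK/ERK feedback and immediate-early genes, Junb and Spry2 were called, and Junb was also the 1 call among 13 LIF and STAT3 genes. Of 15 BMP genes, Id1 and Bmp7 were called. Bmp7, a ligand, was a serum-only increase, from 72.1 and 130 to 314 and 437 in LIF/serum, with 692 to 1052 in 2i/LIF. Of 13 Wnt targets, Nkd1, a feedback inhibitor, rose from 106 and 139 to 353 and 408 in LIF/serum and had 389 to 516 in 2i/LIF. None of 23 nuclear receptor genes, the family on which Dax1 acts, was called with edgeR or DESeq2, and 4 had an unadjusted P under 0.05.

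Germline and surface genes were also called. Of 16 germline genes, Dazl and Mov10l1 were serum-only increases and Mael a 2i-only decrease. Dazl, a germ cell RNA-binding protein, had 877 and 645 normalized counts in control and 1626 and 2052 in Dax1KO libraries of LIF/serum, far below the 25846 to 30472 of 2i/LIF. Of 13 interferon and antigen presentation genes, Ifitm3 and Ifitm1, small membrane proteins, were serum-only decreases and H2-D1, a class I antigen, was an opposite-sign gene. When 1 library was left out, 0 to 3 of the 13 were called. Ifitm3 went from 5209 and 6743 to 1151 and 1109 in LIF/serum and from 768 and 698 to 524 and 400 in 2i/LIF. H2-D1 rose from 496 and 645 to 934 and 879 in LIF/serum and fell from 1194 and 1242 to 665 and 718 in 2i/LIF.

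Larger gene families are given by their counts and medians, and no test compared them. Of 268 genes with a solute carrier (Slc) symbol tested, 13 were called (4.9%, against 2.87% of all genes). Of the 13, 11 had a higher Dax1KO effect in LIF/serum, and the median difference of the family was 0.22. The family was taken by symbol alone and also holds genes that are not transporters, among them Slc9a3r1 and Slc9a3r2, which were both called. The number called was 7 without the first control library of LIF/serum and 1 to 3 without any other. Of 386 Zfp genes, 4 were called, their median difference was -0.35, 108 of the 386 lay above 0, and 39 fell and 8 rose in LIF/serum, where 14.7% of all genes were called in either direction. Among the 4, Zfp36, which binds AU-rich RNA, was a 2i-only increase, from 222 and 297 to 599 and 802. Of 45 collagen and laminin genes, Col5a1, Col4a2 and Col5a3 were called (6.7%, 0 to 4 genes when 1 library was left out), with a median of 0.48. The 25 clustered protocadherins had a median of 1.15, and none was called with edgeR (9 had an unadjusted P under 0.05) against 2 with DESeq2. The imprinted RNA Meg3 was the 1 call among 21 imprinted genes. It fell from 10964 and 10073 to 7031 and 5559 in LIF/serum, with 13520 and 12306 in control and 16081 and 18444 in Dax1KO libraries of 2i/LIF. Cnn2, an actin-binding calponin, was the 1 call among 14 SRF and YAP targets and rose from 1674 and 1490 to 4037 and 2891 in 2i/LIF. None of 9 DNA methylation genes was called with edgeR or DESeq2, and 3 had an unadjusted P under 0.05.

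**Figure D5:**
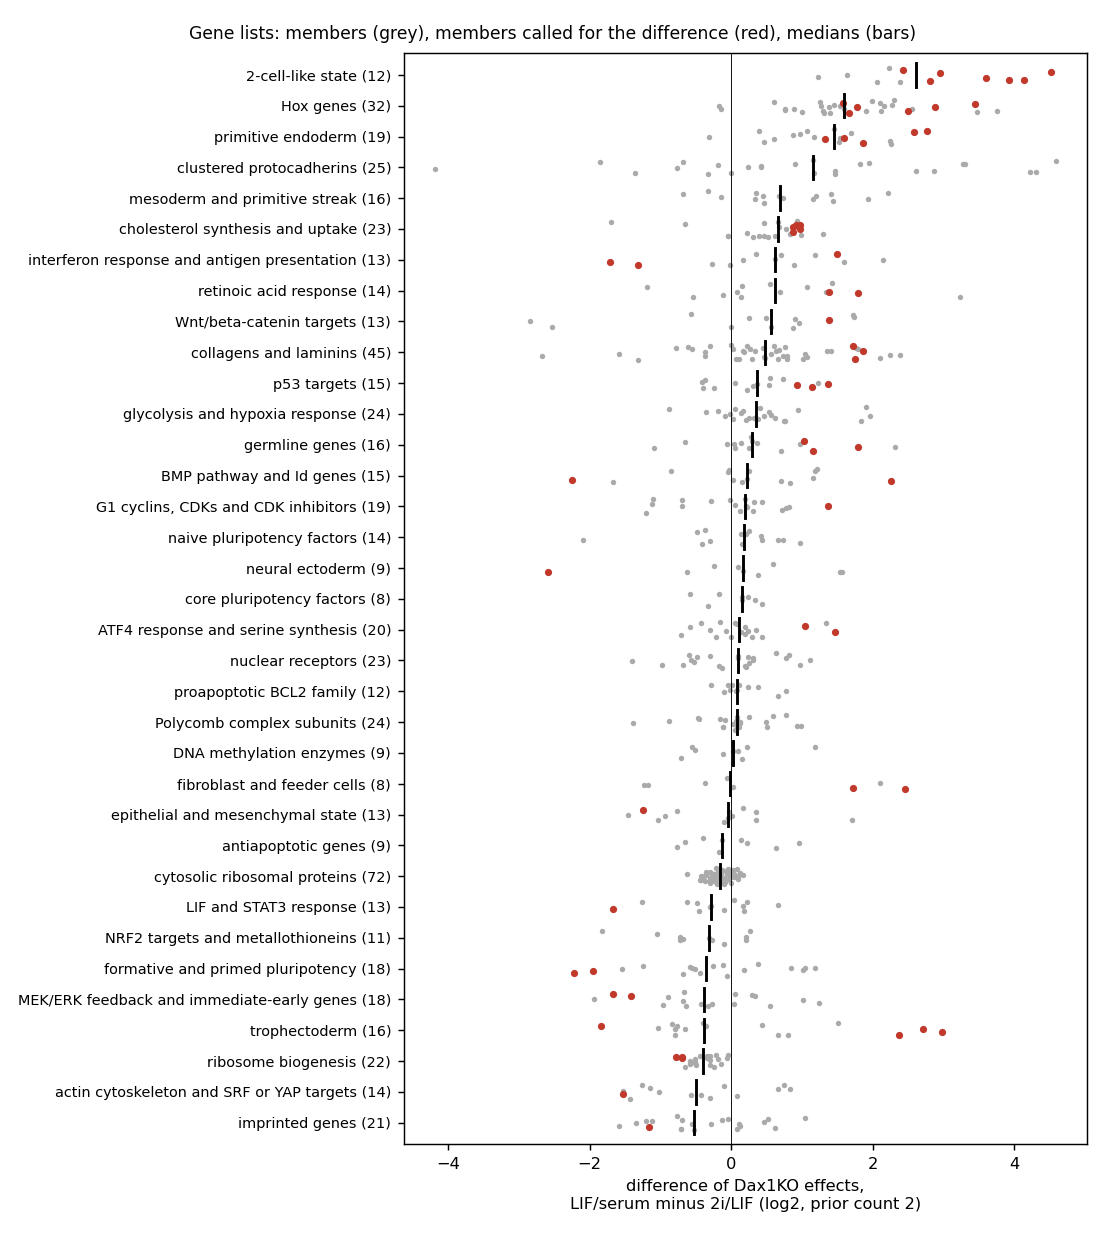
Difference of Dax1KO effects (LIF/serum minus 2i/LIF, log2 with a prior count of 2) for the tested members of each gene list, ordered by the list's median (bar), with called members in red. The 2-cell-like state (median 2.62), Hox genes (1.59) and primitive endoderm (1.46) lie at the top, and imprinted genes (-0.52) at the bottom.

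Called genes were spread over the chromosomes, and the shares on chromosomes X, 7 and 6 are given here. On chromosome X, 22 of the 130 serum-only genes that fell were found (16.9%, against 4.17% of genes tested), and 7 of these 22 were Xlr genes. On chromosome 7 lay 14 of the 82 2i-only genes that fell (17.1%, against 8.21% of genes tested), and 9 of the 14 had a Zscan4 symbol. On chromosome 6, the Dax1KO libraries were higher in both media, with median log2 changes of 0.52 in LIF/serum and 0.44 in 2i/LIF, but the median difference was 0.05 and 39 of 1054 genes (3.70%) were called. Leaving out chromosome 6 left 559 called genes.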

How the data were processed

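RNA-seq libraries of control and Dax1KO mouse ESCs in LIF/serum and 2i/LIF (2 per group) were analysed. The deposited values are raw counts per gene that the authors made from their reads. The submitters' processing notes name HISAT2 2.0.4, DESeq2 and mm10. The counter, its strand setting and the annotation are not given in the sources used here.

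Counts were filtered with filterByExpr, scaled by TMM and fitted with edgeR 4.0.16 in R 4.3.3 (quasi-likelihood test, 1 coefficient per group, all 8 libraries), and P values were adjusted by Benjamini-Hochberg over all genes tested, with a call at 0.05 or less. The contrast was (Dax1KO minus control in LIF/serum) minus (Dax1KO minus control in 2i/LIF). Normalized counts are counts divided by the TMM-scaled library size relative to the mean over libraries. Medians of lists are on log2 CPM with a prior count of 2.

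Genes were named as the 6 with the smallest P per class and direction among those with an absolute log2 difference of at least 1 and a mean of at least 100 normalized counts in a group, plus up to 5 called genes per list. The members and lists were chosen with earlier results of these data known. The families of Xlr, Rag, Hedgehog, lysosomal, actin and steroid genes and the motifs in the printed sequences were chosen after values were seen. RefSeq promoters matched 63.0% of the genes tested, below the 80% minimum, so a comparison of motifs between classes is void. Likeness of transcripts was measured with blastn 2.17.0. Alternatives were DESeq2 1.42.0, other scaling and filters, a replicate block and leaving out each library. Mitochondrially encoded genes did not pass the filter, and 2 genes are not reported here. Counts limit precision to the spread of 2 libraries per group.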

Additional observations from a re-analysis of the deposited data

Results flagged for a closer look

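The difference of the Dax1KO effect between the media was itself tested with edgeR, and 596 genes passed. The log2 difference (LIF/serum minus 2i/LIF) of each named gene that passed is given here by class. Groups held 2 libraries, too few to look for single outlying ones.

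Serum-only genes with a higher Dax1KO effect in LIF/serum were Insig1 (0.87), Mvd (0.87), Ei24 (0.92), Fdft1 (0.92), Nsdhl (0.96), Slc9a3r1 (0.99), Asns (1.04), Mov10l1 (1.04), Zfp516 (1.09), Sesn1 (1.13), Dazl (1.15), Sparc (1.33), Cdkn1a (1.37), Nkd1 (1.38), Pycr1 (1.47), Gata4 (1.6), Hoxd13 (1.6), Col5a3 (1.75), Hoxc13 (1.78), Tmem231 (1.88), Col4a2 (1.89), Ctsc (1.99), Rbm44 (2.11), Bmp7 (2.24), Tfap2a (2.37), Plxdc1 (2.48), Gata6 (2.51), Slc38a8 (2.63), Slc41a2 (2.72), Hand1 (2.77), Hoxc4 (2.77), Hoxc10 (2.98), Efnb3 (3.38), Slc1a1 (3.43) and Hoxa9 (3.74). Serum-only genes with a lower one were Pax6 (-2.68), Zfp629 (-2.50), Rragb (-2.40), Lefty1 (-2.32), Xlr3c (-2.16), Zic2 (-1.96), Rragd (-1.89), Klhl13 (-1.79), Xlr5b (-1.75), Ifitm3 (-1.74), Ifitm1 (-1.33), Mycn (-1.30), Meg3 (-1.16), Slc38a4 (-0.93), Wdr43 (-0.77), Gnl3 (-0.70) and Ncl (-0.70).

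2i-only genes with a higher Dax1KO effect in LIF/serum were Crabp1 (1.37), Mgat3 (1.76), Mael (1.77), Meis2 (1.79), Zscan4f (2.99), Ly6a (3.15), Loxl3 (3.72), Zscan4d (4.31), Zscan4e (4.67), Zscan4b (7.56) and Zscan4a (8.48). Zscan4a and Zscan4b were at 0 in both Dax1KO libraries of 2i/LIF, so their fitted differences depend on how the fit treats 0 and are no measure of size, and the bounds are the at least 20.4-fold and 8.90-fold lower levels given above. 2i-only genes with a lower one were Fignl2 (-2.34), Gata2 (-1.85), B3gnt5 (-1.75), Zfp36 (-1.68), Cnn2 (-1.54), Bcam (-1.47), Acsl5 (-1.47), Zfp263 (-1.38) and Epcam (-1.24).

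Opposite-sign genes with a higher Dax1KO effect in LIF/serum were H2-D1 (1.48), Col5a1 (1.72), Htra1 (2.34), Thy1 (2.47), Nptx2 (2.65), Pou2f3 (2.73), Srgn (2.79), Dpp4 (4.54) and Dcdc2a (7.39). Opposite-sign genes with a lower one were Pax8 (-2.29), Id1 (-2.25), Ap3b2 (-2.16), Junb (-1.68) and Spry2 (-1.41).

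Esx1 (3.02) was called for the difference and in neither medium alone.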

How the results depend on the processing

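Counts of called genes depended on the tool, the filter and single libraries. DESeq2 called 1442 genes (593 of the 596 among them), with 925 serum-only, 289 2i-only, 86 opposite-sign and 27 same-sign genes. With no filter on low counts these numbers were 119 in all, 96, 14, 7 and 0. At an unadjusted P under 0.05 they were 3970, 2185, 857, 366 and 247. Requiring at least 10 counts in every library gave 630 in all and 8 same-sign genes, and leaving out chromosome 6 gave 559 and 3. Classes set by size of fold held 182 serum-only, 37 2i-only, 133 opposite-sign and 23 same-sign genes. When 1 library was left out, so that the lone sample of its group was assumed to vary like the other groups, the counts were 36 to 344 in all, 22 to 249 serum-only, 11 to 56 2i-only, 2 to 32 opposite-sign and 0 to 5 same-sign genes. None of the 89 genes taken by the naming rule changed its direction under any alternative that gave it a value (9 did not pass the minimum of 10 counts in every library). Of these, 56 lost the call with no filter, 2 with another scaling (RLE) and 28 to 71 when 1 library was left out. The cause of these changes was not tested.

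The replicate numbers are shared between groups, but no label ties a number to a batch, and the correlations of same-numbered deviations were -0.015 to 0.108. With the replicate number as a block, 552 genes were called, 477 of them among the 596, with 3 same-sign genes, and 6 genes of the naming rule lost the call at adjusted P values of 0.0517 to 0.0667, among them Mael, Mov10l1, Dazl, Col4a2 and Col5a3.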

Other observations

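Further gene families, chosen after their values were seen, are described here as values with no test of the family. Of 8 Hedgehog pathway genes tested, 4 fell and none rose in LIF/serum (14.7% of all genes were called there in either direction), and the other 4 (Gli2, Gli3, Smo and Sufu) were not called there. Gli1, Ptch1 and Hhip were called for the difference, and all are transcriptional targets of the pathway. Gli1, a transcription factor, had 3225 and 2622 normalized counts in control and 1109 and 908 in Dax1KO libraries of LIF/serum, and 364 and 246 against 848 and 535 in 2i/LIF, a log2 difference of -2.72 ± 0.38 (edgeR, adjusted P = 0.0182). Gli1 overlaps Arhgap9 on the opposite strand. Ptch1, the receptor, went from 4391 and 3204 to 1429 and 1616 in LIF/serum and lay between 1640 and 1872 in 2i/LIF. Hhip, which binds the ligand, went from 108 and 112 to 17.2 and 7.80 in LIF/serum and lay between 87.5 and 140 in 2i/LIF.

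Of 16 lysosomal enzymes tested, 9 rose in LIF/serum (14.7% of all genes were called there in either direction), and 4 were called for the difference (against 2.87% of all genes), all with a higher Dax1KO effect there. Lgmn, a lysosomal protease, went from 3376 and 2990 to 8259 and 7621 in LIF/serum and lay between 5267 and 5819 in 2i/LIF. Glb1, the lysosomal beta-galactosidase, was an opposite-sign gene, rising from 2353 and 2313 to 4545 and 3986 in LIF/serum and falling from 3222 and 2509 to 1639 and 1579 in 2i/LIF. Ctsl, another lysosomal protease, had a difference of 1.47.

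Of 8 actin and actin-linked genes, 4 were called for the difference (against 2.87% of all genes), all with a lower Dax1KO effect in LIF/serum. Actb (beta-actin) rose in 2i/LIF from 28715 and 33125 to 46772 and 46251 and had 28292 to 36493 in LIF/serum, a difference of -0.86 ± 0.16 (edgeR, adjusted P = 0.0382). Pfn1 (profilin) rose in 2i/LIF from 12684 and 14192 to 20885 and 19910. Tmsb4x (thymosin beta 4) fell in LIF/serum from 6881 and 10033 to 3967 and 4080. Actg1 (gamma-actin) was not called, with a difference of -0.11.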
